A study of Mus musculus with 16 samples.

Results

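Imprinted genes are transcribed mainly from the allele of 1 parent. This account follows 49 mouse genes listed as imprinted, chosen by symbol and read from their array probe sets, out of 18193 genes with a probe set of their own on the array. As known from textbooks, 24 are expressed from the maternal allele, 24 from the paternal allele, and Gnas from both, by isoform. A probe set of their own was found for 45 of them, and 43 passed the filter on low values. Total RNA of mouse two-cell embryos had been measured on 16 one-colour arrays, 4 in each of 4 groups. Embryos called BBB, with α-amanitin or untreated, had B6 pronuclei of both parental origins in B6 ooplasm. Embryos called BCB, with α-amanitin or untreated, carried a C3H maternal pronucleus, with a B6 paternal pronucleus and B6 ooplasm. B6 ooplasm and a B6 paternal pronucleus are therefore common to all 4 groups. The drug, which the labels write α-amantin, inhibits RNA polymerase II. The sources used here give no dose, no timing and no number of embryos behind an array. Whether replicates came from separate collections is unknown, and p-values therefore cover only the spread among these arrays, which may be technical.

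Imprints are DNA methylation marks laid down differently in egg and sperm and kept on the parental alleles through the reprogramming that follows fertilization. They act through imprinting control regions, which often direct a cluster of genes, some of them by way of a long non-coding RNA that silences neighbours on the same chromosome. Many imprinted genes regulate fetal growth, the placenta or behaviour, and their imprinted expression is best known from fetal tissues, placenta and brain rather than from cleavage. In the mouse two-cell embryo, most maternal transcripts stored in the oocyte are being degraded while the embryo's own genome becomes active. Amanitin blocks new transcripts of the embryo, while those stored in the oocyte can persist. The probe sets do not separate the alleles, so no value here is a parental share.

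The deposited values are intensities on a linear scale, and every array had been scaled to a 2%-trimmed mean of 150.0. Two-cell markers were present in untreated embryos: the summed intensity of the 4 markers with a probe set, of 10 listed, was 189.3 to 333.0 in BBB with amanitin and 6294.9 to 7452.6 in untreated BBB, and 187.4 to 388.0 in BCB with amanitin and 5993.4 to 6772.2 in untreated BCB. Zfp352 gave the largest part, with untreated means of 4626.0 in BBB and 4255.3 in BCB. The sum of 7 oocyte markers ran opposite to the two-cell sum, from 22946.6 to 24405.4 with amanitin against 11337.2 to 13566.6 untreated in BBB, and from 21188.8 to 23265.2 against 12095.7 to 12971.5 in BCB. Zp3 among them hardly moved, at 747.3 against 738.9 in BBB and 682.6 against 714.1 in BCB. Fewer cells of a type and less RNA per cell cannot be told apart in such samples. Intensities of added control transcripts also moved with the treatment. With amanitin, poly-A controls were brighter by 1.72 (log2) in BBB and by 1.73 in BCB, and hybridization controls by 0.51 and by 0.77. A member called higher below is thus higher relative to the other transcripts of its array, not per embryo. Changes are differences of log2(intensity + 16), with their standard error (SE), which understate the change of dim genes, and a call is a Benjamini-Hochberg adjusted p under 0.05 from limma over all 31953 probe sets tested. Levels of different probe sets are not compared.

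The first comparison asks which imprinted transcripts depended on transcription in embryos with B6 pronuclei, and the second asks the same with a C3H maternal pronucleus. Large and distinct falls were seen for a few members: Phlda2, Mcts2, Sfmbt2, Tssc4, Ube3a and Impact fell by more than 1 on the log2 scale in both kinds of embryo. Of these, Sfmbt2 and Impact owed their pass through the filter on low values to untreated arrays. A longer row of members, led by Gnas, Kcnq1, Copg2, H13, Atp10a, Asb4, Airn and Mest, was higher in treated embryos. In BBB embryos 19 of the 43 members were called higher and 10 lower, together 67.4%, where 70.3% of all 15262 genes tested were called (37.1% higher and 33.2% lower). In BCB embryos 22 were called higher and 9 lower, 72.1%, where 71.9% of all genes were called (39.9% higher and 31.9% lower). The members' share of calls was thus near that of all genes. Their median change was 0.37 in BBB, where that of all genes was 0.11, and 0.52 in BCB, where it was 0.17. Those medians stand for the members that passed the filter, and 15 of the 43 lay below the 40th percentile on at least 1 array.

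The split by direction depended on the scale of the arrays. With the arrays scaled to the poly-A controls, 0 members were called higher and 29 lower (67.4%) in each kind of embryo, where 1.54% of all genes were higher and 79% lower in BBB, and 1.43% and 77.1% in BCB. With the hybridization controls, 12 were higher and 13 lower in BBB, where 22.5% of all genes were higher and 42.5% lower. In BCB these controls gave 11 higher and 13 lower, where 16% of all genes were higher and 47.2% lower. The members called lower as deposited, 10 in BBB and 9 in BCB, were all lower under both scalings. Under the poly-A scale the members' median was −0.89 in BBB and −0.68 in BCB, beside an all-gene median of −1.06 and −1.01. Both control scalings moved changes with amanitin downward, so members lower as deposited had to stay lower, which gives their falls no added support. Rises hold only relative to the array's other transcripts.

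**Figure D1:**
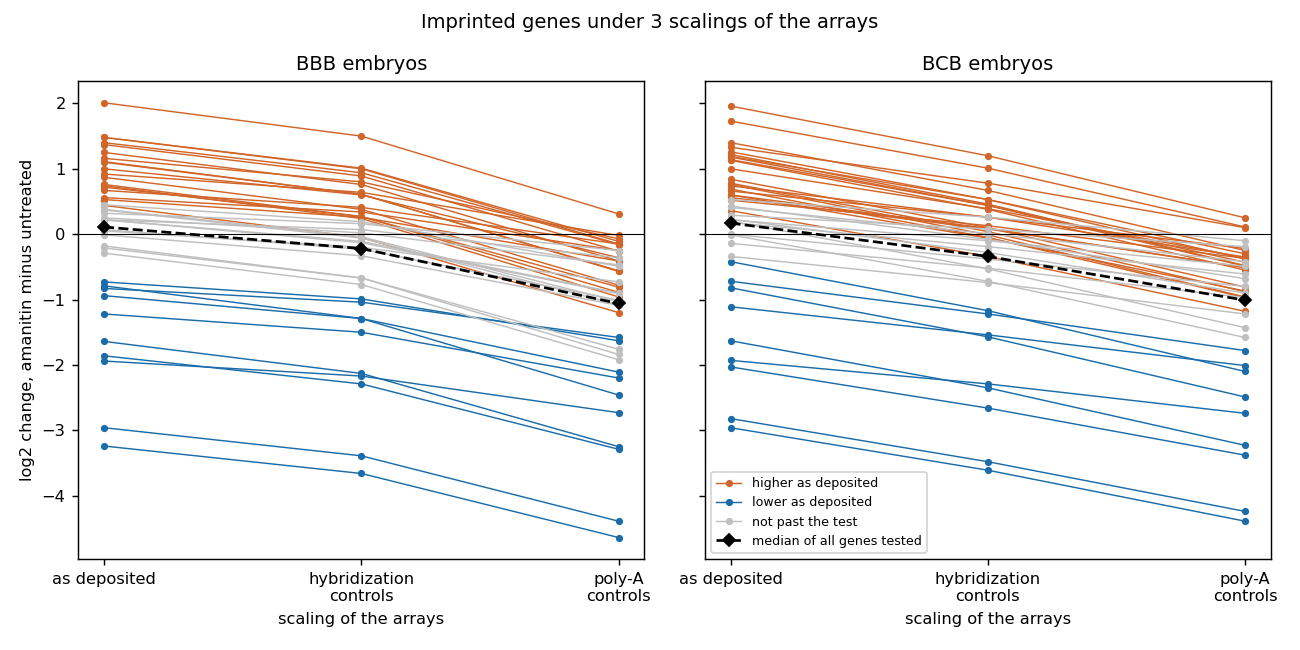
Log2 change with amanitin (amanitin minus untreated) of each of the 43 tested members, as deposited and with the arrays scaled to hybridization or poly-A controls, in BBB (left) and BCB embryos (right); lines join a member's values, coloured by its call as deposited, and the dashed line is the median of all genes. All members move down together from left to right, the median of all genes to −1.06 and −1.01, and the members called lower as deposited are below 0 on all 3 scales.

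Promoter sequences of members that fell and of 1 that rose are shown because imprinted promoters are known for CpG-rich sequence and for the hexamer TGCCGC, which the imprint-keeping protein ZFP57 binds when it is methylated. They run from 250 bases before to 50 after the RefSeq start (GRCm38.p6), 5′ to 3′ on the gene's strand. A gene can have several RefSeq starts: the Phlda2 window belongs to a start inside the gene's annotated span, whose outer end lies farther upstream. Capitals mark TGCCGC or its reverse complement GCGGCA, searched on both strands.
Mcts2 (chr2:152686898-152687197, plus strand): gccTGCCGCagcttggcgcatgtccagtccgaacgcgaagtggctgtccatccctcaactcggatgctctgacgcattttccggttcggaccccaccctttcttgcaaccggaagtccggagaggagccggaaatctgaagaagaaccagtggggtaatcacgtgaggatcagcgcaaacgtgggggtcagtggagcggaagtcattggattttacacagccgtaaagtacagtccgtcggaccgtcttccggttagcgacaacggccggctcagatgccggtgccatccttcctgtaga
Nnat (chr2:157559828-157560127, plus strand): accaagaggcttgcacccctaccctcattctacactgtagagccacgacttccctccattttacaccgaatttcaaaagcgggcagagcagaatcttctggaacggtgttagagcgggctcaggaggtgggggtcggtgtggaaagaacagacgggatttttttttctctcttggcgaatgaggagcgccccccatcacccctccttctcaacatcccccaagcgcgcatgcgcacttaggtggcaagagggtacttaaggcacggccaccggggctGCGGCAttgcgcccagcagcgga
Plagl1 (chr10:13090582-13090881, plus strand): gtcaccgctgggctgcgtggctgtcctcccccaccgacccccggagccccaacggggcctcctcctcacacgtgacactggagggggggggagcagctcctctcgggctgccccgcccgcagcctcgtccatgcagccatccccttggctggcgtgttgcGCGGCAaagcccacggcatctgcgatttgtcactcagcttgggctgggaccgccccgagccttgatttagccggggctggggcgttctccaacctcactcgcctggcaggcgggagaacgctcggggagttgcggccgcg
Phlda2 (chr7:143502475-143502774, minus strand): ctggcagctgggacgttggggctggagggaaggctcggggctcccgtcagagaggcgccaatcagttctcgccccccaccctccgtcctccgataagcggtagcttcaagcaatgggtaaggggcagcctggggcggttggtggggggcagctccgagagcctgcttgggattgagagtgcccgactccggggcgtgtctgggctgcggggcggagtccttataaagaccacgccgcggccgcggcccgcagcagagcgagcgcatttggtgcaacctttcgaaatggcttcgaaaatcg
Mest (chr6:30737800-30738099, plus strand, 1 of its starts): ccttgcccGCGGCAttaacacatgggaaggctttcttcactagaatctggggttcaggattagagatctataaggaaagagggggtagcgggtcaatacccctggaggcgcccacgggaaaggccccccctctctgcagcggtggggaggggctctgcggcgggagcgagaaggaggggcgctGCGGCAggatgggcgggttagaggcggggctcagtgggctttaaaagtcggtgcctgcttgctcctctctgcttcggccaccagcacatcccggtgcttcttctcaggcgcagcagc
The hexamer starts 247 bases before the start of Mcts2, 90 before that of Plagl1 and 27 after that of Nnat, and 242 and 67 bases before the shown start of Mest. The Phlda2 window holds none, which says only that these letters are not in this window. The windows shown do not represent the members. All 3 members lower in BBB that hold the hexamer are shown, while Sfmbt2, Tssc4 and Ube3a, which lack it, are not. The Mest window was picked among its starts because it holds the hexamer, and that at chr6:30733256-30733555 holds none. Windows were found for 41 of the 49 members. The hexamer is in 13 of the 41 (31.7%), where 13.1% of all genes with a window and 11.6% of all windows of this length hold it. By call in BBB it was in 7 of 17 members that were higher, 3 of 8 that were lower and 3 of 12 not called. The 60 member windows held a median of 15.5 CpG, against 7.0 over all windows. A match is a description of the sequence, and methylation was not measured.

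On this scale the largest fall belonged to Phlda2, a maternally expressed gene of the Kcnq1 cluster whose PH-domain protein restrains growth of the placenta. Its gene lies at chr7:143501545-143503145 (GRCm38, RefSeq, as are all gene positions here). Phlda2 read 46.8, 25.0, 47.3 and 38.4 in BBB embryos with amanitin, against 521.8, 451.9, 419.7 and 629.4 in untreated BBB. In BCB embryos it read 31.0, 62.8, 64.8 and 41.6 with amanitin and 499.4, 524.7, 432.0 and 494.6 without. Every treated array was far below every untreated one, and Phlda2 changed by −3.24 ± 0.18 in BBB (adjusted p = 8.88e-14) and −2.96 ± 0.18 in BCB (adjusted p = 4.58e-13). With a pseudocount of 1 in place of 16, Sfmbt2 fell more (−4.57 in BBB and −3.78 in BCB) than Phlda2 (−3.67 and −3.32). Markers of placenta and trophoblast, where Phlda2 is best known, summed to 18.0 to 60.8 with amanitin and 50.1 to 93.2 untreated in BBB, and to 17.9 to 62.0 and 62.1 to 85.9 in BCB, over 3 of 5 listed markers. They went opposite ways: Cdx2 averaged 15 against 54.3 in BBB and 22.1 against 60.6 in BCB, and Elf5 20.7 against 4.8 and 12.9 against 9.1. Their part in the fall was not tested.

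Other members of the Kcnq1 cluster on chromosome 7 went in different directions. This cluster is directed by the paternally expressed long non-coding RNA Kcnq1ot1, which lies inside Kcnq1 and silences neighbours on the paternal chromosome. Tssc4, a factor of spliceosome assembly, read 54.8, 35.2, 47.7 and 64.5 with amanitin against 242.0, 265.0, 172.8 and 222.2 untreated in BBB, and 68.2, 38.7, 44.6 and 25.1 against 298.9, 257.1, 146.2 and 213.3 in BCB. It fell in both kinds, with changes of −1.86 ± 0.21 and −2.03 ± 0.21 (adjusted p = 3.98e-08 and 9.69e-09). Kcnq1, a voltage-gated potassium channel, was higher on all treated arrays than on any untreated one. It read 326.8, 387.2, 406.7 and 341.9 with amanitin and 121.5, 111.3, 125.0 and 123.8 untreated in BBB, and 343.4, 464.4, 502.4 and 453.6 and 126.8, 116.1, 126.1 and 114.5 in BCB. That is a rise of 1.48 ± 0.12 and 1.73 ± 0.12 (adjusted p = 1.66e-10 and 1.09e-11). Nap1l4, a histone chaperone, also rose: 2940.4, 3086.1, 3199.5 and 3732.2 against 1722.0, 2081.0, 1963.7 and 1933.8 in BBB (0.74), and 3012.4, 3061.9, 3592.9 and 3242.3 against 1815.0, 1926.2, 1967.4 and 1879.0 in BCB (0.76).

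Kcnq1ot1 itself was dim, at 8.4, 15.2, 15.3 and 5.4 in BBB with amanitin against 27.9, 17.4, 34.6 and 35.6 untreated, which were called lower (−0.73, adjusted p = 0.0025). In BCB it read 17.2, 9.9, 19.7 and 13.1 with amanitin and 21.7, 14.0, 9.3 and 29.4 without, overlapping values with a change of −0.14 ± 0.20 that was not called. Another dim probe set of Kcnq1ot1 was called higher in BCB, at 18.2 against 5.7 (0.60, adjusted p = 0.0401), and read 15.8 against 8.3 in BBB (0.32, not called). The call in BBB was lost without BBB arrays 3 and 4 (−0.52, adjusted p = 0.0713) and with the mean of the gene's probe sets (−0.12). Cdkn1c, the cyclin-dependent kinase inhibitor p57, was not called in either kind, with 322.9 ± 55.7 against 396.8 ± 64.1 in BBB and 304.9 ± 63.3 against 261.8 ± 40.1 in BCB (mean ± SD, n = 4). It was called lower in BBB with either control scaling (−0.77 and −1.92) and higher in BCB with quantile normalization (0.47). The transcription factor Ascl2, the tetraspanin Cd81 and the transporter Slc22a18 were dim, with group means of 5.2 to 41.5, and were not called. Of the 9 cluster members tested, 2 were higher and 3 lower in BBB, and 2 higher and 2 lower in BCB. Over all genes 70.3% were called in BBB and 71.9% in BCB.

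**Figure D2:**
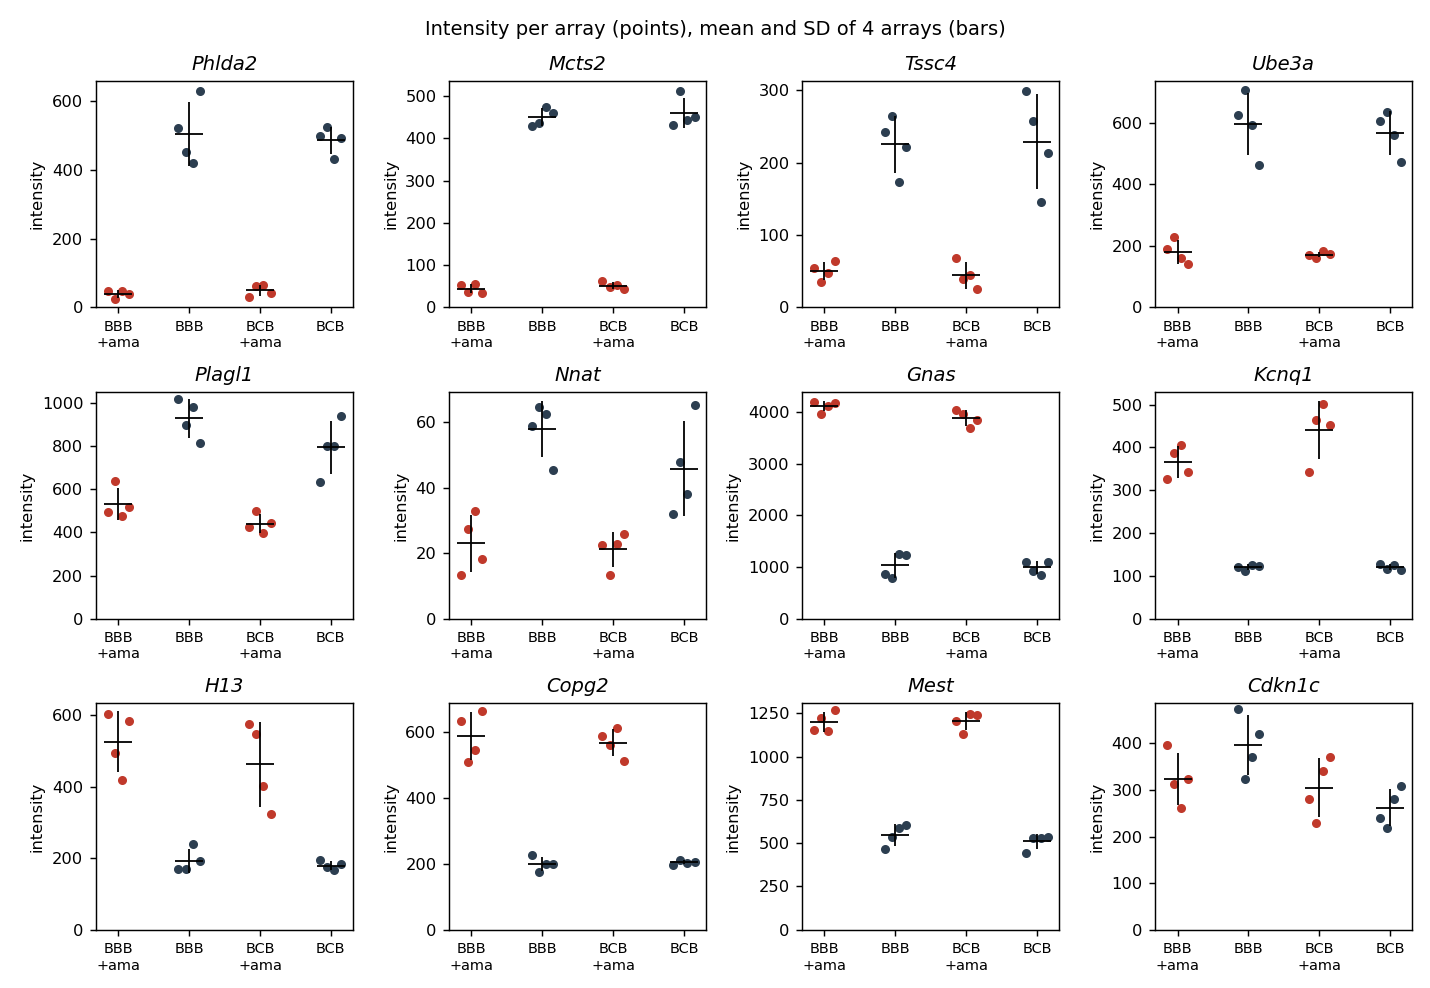
Intensity of 12 members on each array (points; red with amanitin, dark untreated) with the mean and SD of 4 arrays (bars), for BBB and BCB embryos, on linear axes from 0. Phlda2, Mcts2, Tssc4, Ube3a, Plagl1 and Nnat are lower on all treated arrays of a kind than on its untreated arrays; Gnas, Kcnq1, H13, Copg2 and Mest are higher; Cdkn1c overlaps between treated and untreated arrays.

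A second large fall was that of Mcts2, whose promoter window holds the hexamer. It is a paternally expressed retrogene of a translation re-initiation factor that sits inside an intron of H13. Mcts2 read 52.0, 36.1, 55.1 and 34.4 in BBB embryos with amanitin and 428.7, 436.4, 475.2 and 460.8 in untreated BBB. It read 62.0, 48.2, 53.9 and 42.8 in BCB embryos with amanitin and 432.8, 512.1, 444.7 and 450.3 in untreated BCB. No array of a treated group came near an untreated one, and the change was −2.96 ± 0.14 in BBB and −2.82 ± 0.14 in BCB (adjusted p = 3.97e-15 and 9.79e-15). Its near-identical source gene Mcts1, chosen after its values were seen, also fell, at 30.5 ± 4.0 against 176.1 ± 59.4 in BBB (−2.0) and 25.5 ± 18.7 against 156.5 ± 17.4 in BCB (−2.15), so how much of the Mcts2 reading comes from Mcts2 itself is uncertain. The host gene H13, the maternally expressed signal peptide peptidase, went the other way, with 603.3, 495.3, 418.2 and 584.2 against 170.3, 170.3, 240.4 and 191.2 in BBB and 575.9, 547.4, 401.1 and 324.2 against 193.7, 174.8, 166.0 and 183.3 in BCB. It rose by 1.37 ± 0.16 and 1.26 ± 0.16 (adjusted p = 5.3e-08 and 2.14e-07). Another H13 probe set fell, at 2.7 against 32.2 in BBB (−1.36) and 3.3 against 21.3 in BCB (−0.96), so the 2 readings of H13 disagree in direction. With the mean of its probe sets H13 was not called in either kind (0.08 and 0.04). As background, mouse H13 is known to end at different polyadenylation sites on its maternal and paternal alleles; which site each probe set reads was not looked up.

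Ube3a, a ubiquitin ligase whose loss from the maternal allele causes Angelman syndrome in humans, lies in the Snrpn-Ube3a cluster and fell in both kinds. Values were 189.5, 230.1, 161.1 and 142.4 with amanitin and 625.0, 707.9, 593.4 and 463.9 untreated in BBB, and 170.2, 161.5, 183.4 and 173.0 and 606.0, 634.6, 559.1 and 471.8 in BCB. The change of Ube3a was −1.64 ± 0.14 in BBB and −1.63 ± 0.14 in BCB (adjusted p = 3.14e-10 and 3.86e-10), and 2 further probe sets of it also fell (−1.60 in BBB and −1.35 in BCB for one, −1.12 and −1.25 for the other). A further pair of dim probe sets was not called in either kind. Its neighbour Atp10a, a phospholipid flippase, was instead higher with amanitin. Atp10a read 301.6, 277.7, 318.2 and 295.0 against 94.7, 74.4, 132.0 and 117.7 in BBB, and 252.5, 236.8, 275.4 and 279.1 against 114.6, 87.6, 86.2 and 161.1 in BCB, a rise of 1.40 ± 0.17 and 1.14 ± 0.17 (adjusted p = 6.92e-08 and 1.64e-06). All 4 probe sets of Atp10a rose in both kinds, by 0.49 to 1.40. The paternally expressed genes of the cluster were dim. Snrpn, a spliceosome protein, could be read only from 1 dim probe set, since 6 others are shared with Snurf. It averaged 22.4 ± 4.2 against 10.2 ± 4.9 in BBB, where it was called higher (0.56), and 15.3 ± 7.4 against 10.4 ± 3.4 in BCB, where it was not (0.22, adjusted p = 0.285). Snrpn passed the filter only through its treated arrays, so that a rise was favoured in advance. Ndn, a MAGE-family protein, was called higher only just in BCB (41.2 ± 22.4 against 20.6 ± 2.2, 0.56, adjusted p = 0.0318), a call lost when any of 4 arrays was left out (0.34 to 0.54), and not in BBB (35.7 ± 12.8 against 27.6 ± 5.6, 0.22). Magel2, of the same family, was not called, at 27.2 ± 8.0 against 27.1 ± 3.2 and 35.1 ± 6.6 against 27.7 ± 5.9.

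Sfmbt2, a Polycomb-group gene expressed from the paternal allele in mouse placenta, was near the bottom of the scale with amanitin. It read 3.8, 1.3, 0.5 and 0.4 in BBB with amanitin and 44.3, 57.9, 50.7 and 51.8 in untreated BBB, and 3.0, 8.2, 4.9 and 0.8 in BCB with amanitin and 76.3, 67.2, 56.4 and 44.4 in untreated BCB. The change was −1.94 ± 0.16 and −1.93 ± 0.16 (adjusted p = 2.28e-10 and 2.69e-10). Sfmbt2 passed the filter through its 8 untreated arrays, so that it had to differ, and a second, dimmer probe set of it rose, at 14.2 against 1.9 in BBB (0.75) and 12.1 against 2.6 in BCB (0.57). Impact, an inhibitor of the stress kinase GCN2, read 10.2, 7.9, 22.1 and 5.6 against 62.9, 35.2, 56.9 and 35.5 in BBB and 11.7, 17.6, 1.5 and 17.6 against 38.0, 36.6, 53.3 and 44.5 in BCB. All its treated values lay below all untreated ones, with changes of −1.22 ± 0.22 and −1.11 ± 0.22 (adjusted p = 3.01e-05 and 9.43e-05). Impact would not have passed the filter without its untreated arrays, so that a fall was favoured in advance.

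Plagl1, a zinc-finger transcription factor of fetal growth, fell as well, though less steeply. It read 497.0, 637.7, 477.0 and 517.0 against 1019.5, 897.9, 983.8 and 816.7 in BBB, and 423.9, 501.9, 396.6 and 443.6 against 635.9, 803.2, 800.8 and 939.4 in BCB. Plagl1 changed by −0.79 ± 0.12 and −0.82 ± 0.12 (adjusted p = 3.22e-06 and 1.99e-06), with no overlap of treated and untreated arrays. In BCB a dim second probe set of it rose, at 46.7 against 25.5 (0.58), and with the mean of its probe sets Plagl1 was not called there (−0.03). Nnat, which encodes the membrane proteolipid neuronatin and lies inside Blcap, fell as well: 13.4, 27.4, 32.9 and 18.1 against 58.8, 64.6, 62.6 and 45.5 in BBB, a change of −0.94 ± 0.19 (adjusted p = 0.00013), and 22.5, 13.3, 22.9 and 25.8 against 31.8, 47.9, 38.1 and 65.3 in BCB, a change of −0.72 ± 0.19 (adjusted p = 0.00199). Blcap, a small membrane protein expressed from the maternal allele in brain, was called lower in BCB, with 529.6, 450.2, 449.3 and 505.3 against 595.0, 669.1, 812.8 and 557.7 (−0.42, adjusted p = 0.00331), and not in BBB, with 594.1, 474.9, 508.8 and 621.5 against 557.0, 657.5, 681.4 and 589.3 (−0.18, adjusted p = 0.202). Sgce, epsilon-sarcoglycan, was called lower in BBB, at 5.5 ± 2.0 against 22.4 ± 6.7 (−0.83), but not in BCB, at 15.1 ± 6.6 against 22.8 ± 3.9 (−0.34, adjusted p = 0.0849). Sgce passed the filter only through its untreated arrays, so that a fall was favoured in advance. With either control scaling Blcap was also lower in BBB (−0.67 and −1.84) and Sgce in BCB (−0.74 and −1.22). Whether Sgce, Blcap and Kcnq1ot1 responded differently in the 2 kinds was tested by the interaction, and none passed (adjusted p = 0.618, 0.743 and 0.575).

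The largest rise among the members was that of Gnas, the stimulatory G-protein alpha subunit. Gnas read 4181.0, 3965.6, 4114.2 and 4175.2 in BBB with amanitin against 869.5, 781.9, 1250.9 and 1222.2 untreated, and 4043.7, 3957.5, 3694.5 and 3841.0 in BCB with amanitin against 1086.6, 916.6, 848.8 and 1102.6 untreated. Treated values were close together and far above the untreated ones, a rise of 2.01 ± 0.12 and 1.96 ± 0.12 (adjusted p = 3.26e-13 and 4.98e-13). With the poly-A scale it was the only member above 0 in BBB (0.31), and in BCB it stayed above 0 (0.25) with Kcnq1 (0.11) and Airn (0.10); none of these was called. Some isoforms of Gnas are maternal and some paternal, and which of them this probe set reads was not looked up. The only other probe set of Gnas that was tested was dim and not called. It read 14.8 against 7.8 in BBB (0.32) and 19.2 against 9.9 in BCB (0.45).

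Mest and Copg2 are overlapping genes of opposite parental expression, and both rose. Mest, a paternally expressed alpha/beta hydrolase of mesoderm and placenta, read 1153.4, 1224.5, 1150.5 and 1266.6 against 465.2, 534.0, 590.2 and 602.7 in BBB and 1205.8, 1130.8, 1243.0 and 1241.8 against 445.9, 531.2, 529.5 and 534.9 in BCB, with changes of 1.11 ± 0.09 and 1.22 ± 0.09 (adjusted p = 2.74e-10 and 5.67e-11). Copg2, a subunit of the COPI vesicle coat, read 632.3, 509.8, 545.3 and 661.8 against 226.6, 174.0, 199.7 and 199.8 in BBB and 587.1, 559.9, 609.9 and 512.0 against 196.5, 212.0, 203.5 and 204.3 in BCB (1.48 and 1.40, adjusted p = 2.69e-11 and 7.07e-11). Neither overlapped between treated and untreated arrays. In the Peg10-Sgce cluster, Asb4, an ankyrin-repeat protein of ubiquitin ligases, read 776.7, 911.1, 760.0 and 759.1 against 350.2, 305.4, 322.0 and 329.4 in BBB and 710.4, 711.5, 759.5 and 748.5 against 346.2, 296.3, 275.3 and 343.0 in BCB, all treated values being higher (1.25 and 1.18, adjusted p = 9.17e-11 and 2.59e-10). Its neighbour Ppp1r9a, the actin-binding scaffold neurabin, rose less, to 182.4 ± 17.8 against 104.3 ± 14.0 in BBB (0.72) and 170.8 ± 31.1 against 128.3 ± 13.4 in BCB (0.36, adjusted p = 0.0242, lost without any of 4 arrays). Here, too, a second probe set fell, at 84.2 against 132.4 in BBB (−0.57) and 109.0 against 148.0 in BCB (−0.40), and with the mean of the probe sets Ppp1r9a was not called (0.08 and 0.05).

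The Peg3 cluster was higher throughout. Peg3, a paternally expressed zinc-finger protein of growth and maternal care, read 476.1, 664.3, 644.2 and 655.0 against 327.0, 265.8, 364.2 and 344.4 in BBB and 541.6, 521.6, 535.4 and 643.7 against 303.4, 284.1, 329.3 and 362.5 in BCB (0.87 and 0.78, adjusted p = 1.42e-06 and 6.88e-06), and its groups did not overlap. The deubiquitinase Usp29 averaged 26.4 ± 10.1 against 10.6 ± 6.0 in BBB and 26.8 ± 5.3 against 11.5 ± 6.2 in BCB (0.67 and 0.66); without BBB arrays 3 and 4 its call in BBB was lost (0.41, adjusted p = 0.146). The maternally expressed zinc-finger gene Zim1 averaged 36.0 ± 5.3 against 11.6 ± 4.0 in BBB and 41.5 ± 10.4 against 18.3 ± 4.2 in BCB (0.92 and 0.74).

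In the insulin-like growth factor axis, Igf2, the paternally expressed fetal growth factor, rose in both kinds, with 104.4, 96.7, 79.6 and 95.3 against 39.9, 37.9, 37.9 and 40.2 in BBB and 95.1, 108.7, 87.2 and 89.4 against 34.7, 46.3, 33.7 and 44.5 in BCB (1.0 in each, adjusted p = 8.06e-07 and 8.01e-07). A dim probe set of Igf2 was not called, at 15.9 against 10.3 in BBB (0.27) and 13.2 against 10.7 in BCB (0.12). Its receptor Igf2r, which clears the factor and is maternally expressed, had 143.1 ± 27.1 against 168.6 ± 34.1 in BBB (95% interval of the change −0.53 to 0.11) and 180.2 ± 20.9 against 181.9 ± 22.0 in BCB (−0.33 to 0.31), and was not called; another probe set of it fell in BCB, at 47.2 against 93.0 (−0.77), and was not called in BBB, at 57.9 against 72.0 (−0.21). With either control scaling the main reading of Igf2r was called lower, in BBB (−0.67 and −1.76) and in BCB (−0.72 and −1.58). The non-coding RNA Airn, which silences Igf2r on the paternal chromosome after implantation, read 106.4, 58.5, 75.1 and 70.5 against 27.3, 17.2, 27.9 and 29.6 in BBB and 91.5, 62.9, 90.4 and 79.5 against 19.8, 17.9, 24.3 and 28.0 in BCB. Airn rose by 1.16 ± 0.17 and 1.33 ± 0.17 (adjusted p = 2.16e-06 and 2.78e-07) on this probe set. Of the 5 probe sets of Airn 2 were tested, and the other one was dim and not called (−0.03 in BBB and 0.26 in BCB). Since Airn and Igf2r overlap and the strand of the probes was not checked, their readings may not be independent. Grb10, an adaptor that restrains insulin signalling, averaged 407.1 ± 49.3 against 294.9 ± 18.4 in BBB and 481.4 ± 48.3 against 294.2 ± 48.3 in BCB and rose a little (0.44 and 0.69). Averaging the probe sets of Grb10 lost its call in BBB (0.14, adjusted p = 0.3), where a dim probe set went the other way (−0.43, not called). Slc22a2, an organic cation transporter beside Igf2r, was dim, with 24.7 ± 7.5 against 12.1 ± 3.0 in BCB, where it was called higher (0.52, lost without any of 3 arrays), and 17.0, 19.5, 23.8 and 51.7 against 16.6, 11.5, 11.6 and 20.5 in BBB, where it was not (0.45, adjusted p = 0.0524); under 6 alternatives, quantile normalization among them, and without any of 3 arrays, it was called in BBB too (0.21 to 0.58).

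Further rises were those of Inpp5f, Meg3, Commd1, Rasgrf1, Slc38a4 and Dlk1. Inpp5f, an inositol phosphatase, read 644.2, 753.3, 828.2 and 744.4 against 355.8, 277.9, 384.4 and 339.3 in BBB and 644.4, 817.1, 758.4 and 743.8 against 344.3, 310.2, 342.1 and 319.4 in BCB (1.10 and 1.13, adjusted p = 5.54e-09 and 3.42e-09). Meg3, the maternal non-coding RNA of the Dlk1-Dio3 cluster, read 566.6, 461.1, 487.1 and 436.1 against 251.9, 245.8, 293.8 and 341.4 in BBB and 542.8, 424.3, 473.2 and 481.4 against 257.6, 237.3, 237.9 and 317.7 in BCB (0.76 and 0.84, adjusted p = 1.27e-05 and 3.13e-06). Both were higher on all treated arrays. Dlk1, a Notch-like ligand, was dim and called in BBB, at 28.5 ± 10.7 against 14.9 ± 7.9 (0.53, adjusted p = 0.0321, lost without any of 4 arrays), with 23.1 ± 10.9 against 12.6 ± 2.1 in BCB (0.41, adjusted p = 0.0873), where it was called without either of 2 arrays (0.52). Called as deposited in BCB and not in BBB were Commd1, a copper-handling protein, at 139.1, 201.1, 136.4 and 175.8 against 91.9, 55.4, 45.7 and 61.2 (1.19 ± 0.21, adjusted p = 3.51e-05), the Ras exchange factor Rasgrf1, at 121.1 ± 11.4 against 74.2 ± 1.8 (0.60), and the amino acid transporter Slc38a4, at 45.9 ± 20.2 against 23.4 ± 5.4 (0.60, lost without any of 5 arrays). With the mean of the probe sets the BCB calls of Rasgrf1 (0.30, adjusted p = 0.107) and Slc38a4 (0.32, adjusted p = 0.0778) were lost. A dimmer probe set of Commd1 was not called in either kind, at 39.2 against 33.4 in BCB (0.16) and 29.8 against 25.8 in BBB (0.14). In BBB, the main reading of Commd1 averaged 95.6 ± 39.3 against 65.9 ± 11.3 (0.38, adjusted p = 0.12), and was called higher with quantile normalization (0.74, adjusted p = 0.0036), with median centring (0.48, adjusted p = 0.0454) and without amanitin array 4 (0.58, adjusted p = 0.0188). Rasgrf1 averaged 110.2 ± 40.7 against 78.4 ± 11.6 there (0.37, adjusted p = 0.0651), and was called with quantile normalization (0.73), median centring (0.47), array weights (0.39) and without any of 3 arrays (0.45 to 0.51). Slc38a4 averaged 30.9 ± 17.2 against 26.4 ± 5.2 (0.07, adjusted p = 0.796).

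The histone chaperone-like Nap1l5 and the proteoglycan Dcn were dim and not called in either kind, with group means of 6.4 to 19.5. Peg10, a retrotransposon-derived gene of the placenta, reached the 40th percentile on 2 of 16 arrays and was not tested, with group means of 5.4 to 12.7. Mkrn3 reached it on none, with group means of 0.2 to 2.2. H19 has only a probe set shared with Mir675, and Dio3, Slc22a3 and Zrsr1 have none that names them, so these 4 have no value here. In all, 23 of the 43 tested members had a group mean of at least 100.

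**Figure D3:**
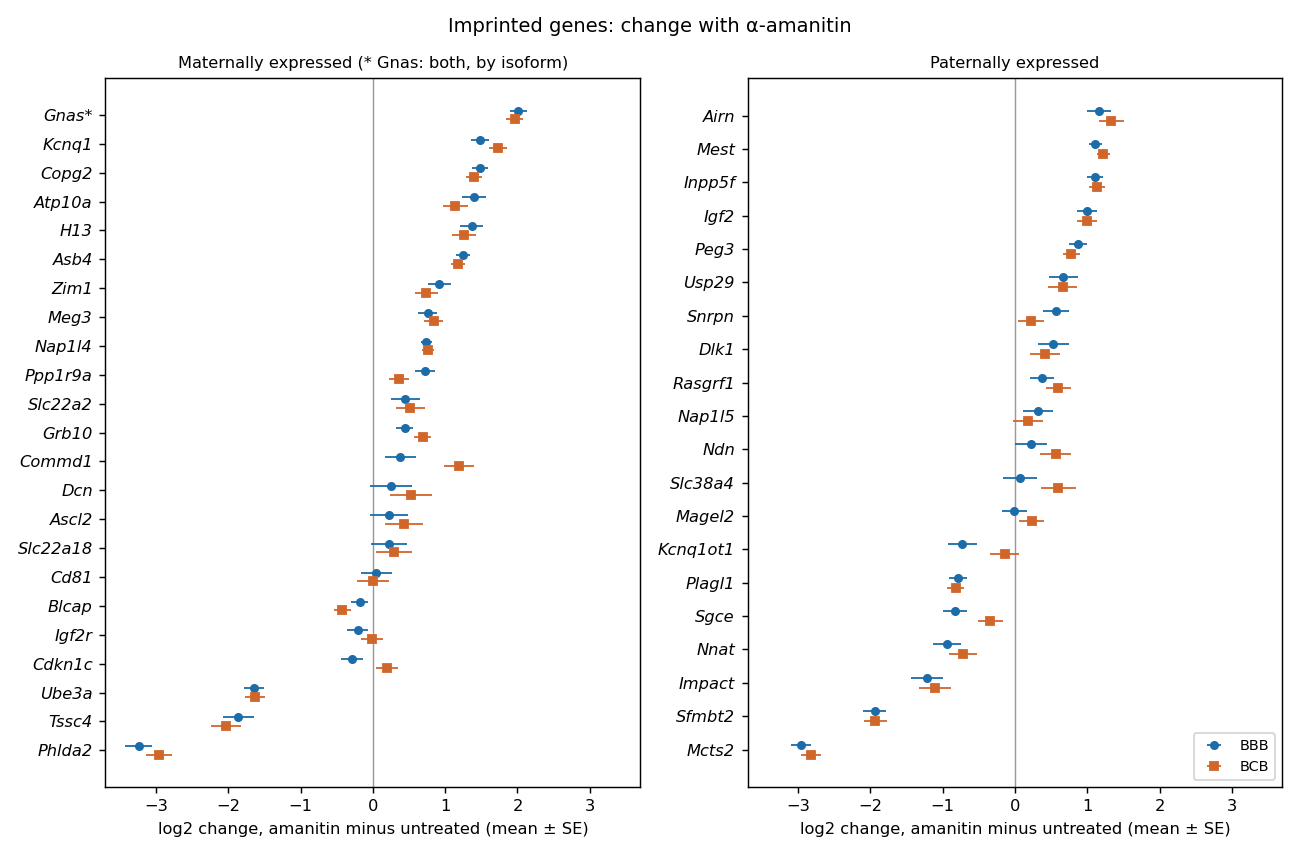
Log2 change with amanitin (amanitin minus untreated, mean ± SE from limma, 4 arrays a group) of maternally (left) and paternally expressed members (right), for BBB (circles) and BCB embryos (squares). Members of both classes lie on both sides of 0, from −3.24 for Phlda2 to 2.01 for Gnas.

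Both directions were found among maternally and among paternally expressed members. Of 22 maternally expressed members, 10 were higher and 3 lower with amanitin in BBB, with a median change of 0.41, and 12 higher and 4 lower in BCB, with a median of 0.52. Of 20 paternally expressed members, 8 were higher and 7 lower in BBB, with a median of 0.27, and 9 higher and 5 lower in BCB, with a median of 0.32. The same medians over all genes were 0.11 and 0.17. With the poly-A scale the medians were −0.85 and −0.74 for maternally and −0.96 and −0.74 for paternally expressed members. Directions also differed inside clusters: in H13-Mcts2, Kcnq1 and Snrpn-Ube3a some members were higher and others lower in both kinds of embryo, while all tested genes of Mest-Copg2 and Peg3 were higher. For H13-Mcts2 this depends on the H13 probe set that was read, since another one fell. It also depends on a Mcts2 reading whose share from Mcts1 is uncertain.

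Each kind of embryo gave its own set of calls, with separate untreated arrays. Of the 19 members higher in BBB, 17 (89.5%) were also higher in BCB, which is 77.3% of the 22 called there. Of the 10 lower in BBB, 8 (80%) were lower in BCB, 88.9% of the 9 called there. Over all genes, 90.6% of those higher in BBB were also higher in BCB (84.3% of BCB's), and 90.2% of those lower in BBB were lower in BCB (93.6% of BCB's). None was called in opposite directions. Treated and untreated arrays did not overlap for 27 members in BBB, where 64.6% of all genes did not overlap, and for 28 in BCB, where 65.4% did not. The difference between the kinds, tested as the interaction of kind and amanitin, passed for 0 of 43 members in limma, with 3 at an unadjusted p under 0.05, where 0.256% of all genes passed (0.0655% upward and 0.19% downward). The largest was that of Commd1, 0.80 ± 0.30 (adjusted p = 0.428).

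The strain comparison asks whether imprinted transcripts differ with the origin of the maternal pronucleus. In untreated embryos 0 of the 43 members passed in limma, where 0.649% of all genes did (0.38% higher and 0.269% lower), and 1 member, Cdkn1c, had an unadjusted p under 0.05. Cdkn1c read 238.9, 219.1, 281.5 and 307.5 in BCB and 473.1, 324.4, 369.9 and 419.8 in BBB. All 4 BCB values lay below all 4 BBB values, with a difference of −0.57 ± 0.15 (95% interval −0.89 to −0.25, adjusted p = 0.125). It was called when arrays were weighted (adjusted p = 0.0255), and with amanitin the difference was −0.09 ± 0.15. Nap1l5, at 14.8, 13.7, 12.4 and 10.8 in BCB and 5.9, 8.5, 1.3 and 10.3 in BBB, was the other member without overlap (0.38, adjusted p = 0.838), where 6.43% of all genes had none.

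The differences between untreated BCB and BBB ran from −0.57 to 0.38, with a median of −0.04 where that of all genes was −0.01. The median was −0.03 over 22 maternally and −0.05 over 20 paternally expressed members. The 95% intervals of single members reached from −0.89, for Cdkn1c, to 0.82 at most. These intervals give the differences compatible with a member's values on 4 arrays a group. For bright members they were narrower, such as −0.19 to 0.15 for Nap1l4 and −0.29 to 0.10 for Mest. Among members with a large response to amanitin, the difference between untreated kinds was −0.04 for Phlda2 (95% interval −0.40 to 0.33), 0.03 for Mcts2 (−0.25 to 0.31) and −0.04 for Gnas (−0.28 to 0.20).

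With amanitin, BCB against BBB, again 0 of 43 members passed in limma, where 0.0786% of all genes did (0.0393% higher and 0.0393% lower), and 3 had an unadjusted p under 0.05. Commd1 read 139.1, 201.1, 136.4 and 175.8 in BCB with amanitin and 127.4, 131.1, 68.6 and 55.2 in BBB with amanitin. It was the only member whose groups did not overlap (0.74 ± 0.21, adjusted p = 0.205), where 3.66% of all genes had no overlap. Sgce differed by 0.51 ± 0.17 (adjusted p = 0.283) and Plagl1 by −0.26 ± 0.12 (adjusted p = 0.442). The median difference was −0.03 over maternally and 0.05 over paternally expressed members.

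**Figure D4:**
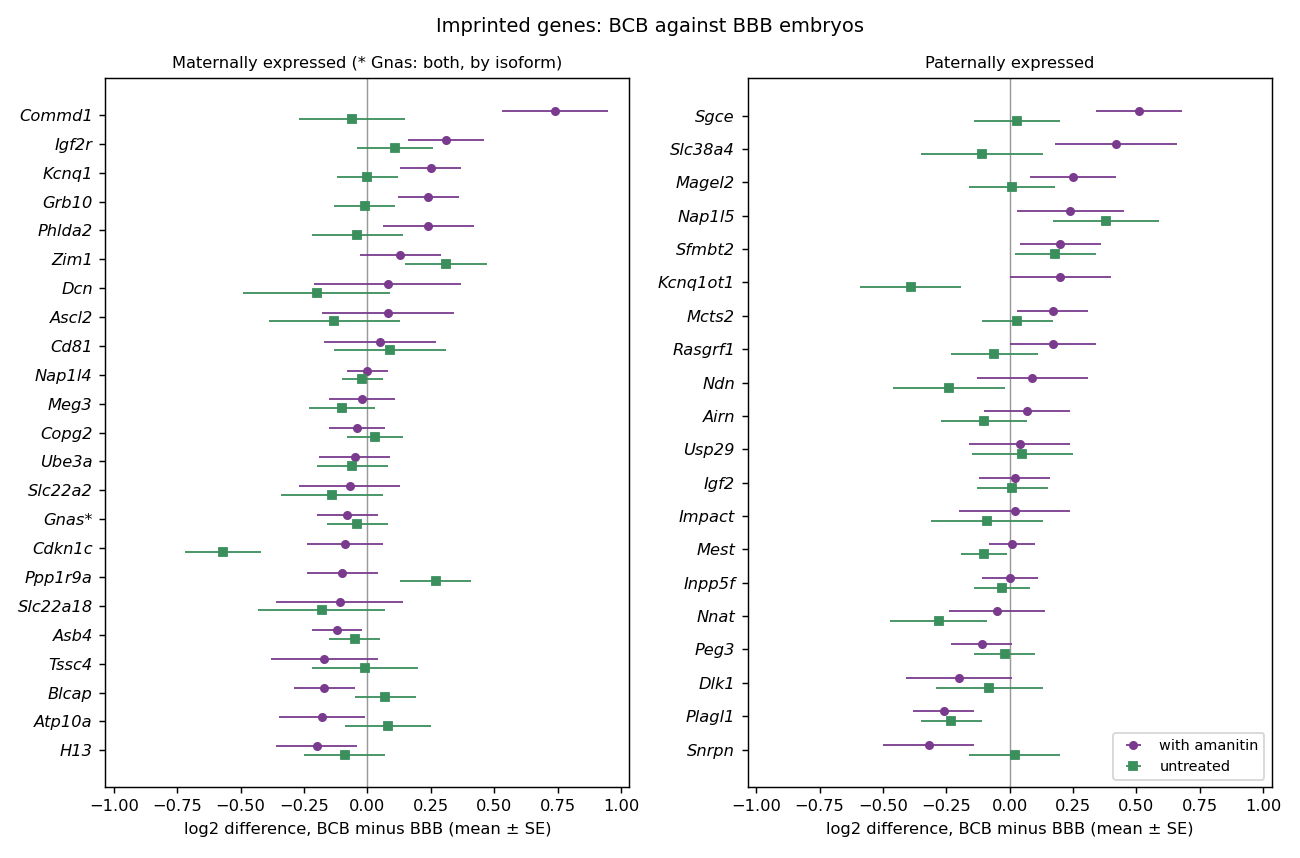
Log2 difference between BCB and BBB embryos (BCB minus BBB, mean ± SE from limma, 4 arrays a group), with amanitin (circles) and untreated (squares), for maternally (left) and paternally expressed members (right). Most points lie near 0; Cdkn1c in untreated embryos (−0.57) and Commd1 with amanitin (0.74) lie farthest from it.

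Genes listed here as imprint regulators, and imprinted genes outside the 49, were read beside the members. Of 30 listed imprint regulators, 27 were tested, and 11 were higher and 14 lower with amanitin in BBB (92.6%, where 70.3% of all genes were called), and 11 higher and 13 lower in BCB (88.9%, where 71.9% were). Their median SE was 0.12 in each kind, where that of all genes was 0.17. A change of a given size is called more easily at a smaller SE, and the part of this in their share was not tested. Trim28, the corepressor that ZFP57 recruits, averaged 460.9 ± 112.9 with amanitin against 3557.4 ± 163.1 untreated in BBB and 484.2 ± 10.8 against 3636.9 ± 210.6 in BCB, and fell (−2.93 and −2.87). Zfp57 itself was higher, at 363.5 ± 76.7 against 150.0 ± 47.9 in BBB (1.22) and 469.3 ± 130.2 against 222.6 ± 154.7 in BCB (1.16). The maintenance methyltransferase Dnmt1 rose by 0.33 and 0.53, and Dppa3, which protects maternal methylation marks in the zygote, fell (−1.37 and −1.49). The largest fall on the list was that of Rbbp6 (−3.96 and −4.18), and the largest rise that of the methylcytosine oxidase Tet3 in BBB (1.90) and of Dnmt3l, a cofactor of imprint establishment in the oocyte, in BCB (2.01).

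Of 34 other imprinted genes, 25 were tested, with 7 higher and 7 lower in BBB, and 8 higher and 6 lower in BCB. That is 56.0% in each, where 70.3% of all genes were called in BBB and 71.9% in BCB. The largest fall was that of Tfpi2, a protease inhibitor next to Sgce, at 4.8 ± 1.6 with amanitin against 163.6 ± 13.9 untreated in BBB (−3.11) and 8.4 ± 2.9 against 167.9 ± 29.0 in BCB (−2.90). The treated means of Tfpi2 lie below the 40th percentile of the arrays, so that it passed the filter through untreated arrays and had to differ. The largest rise was that of the zinc-finger gene Zim3 in BBB (2.19) and of tyrosine hydroxylase, Th, in BCB (1.79). In the strain comparison 1 gene of this list passed, Trappc9, a trafficking-complex subunit chosen after its values were seen. Trappc9 averaged 359.5 ± 45.0 in untreated BCB and 246.3 ± 28.7 in untreated BBB (0.52, adjusted p = 0.0181), and its response to amanitin differed between the kinds (interaction −0.70, adjusted p = 0.0489).

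Markers of other cells that an embryo sample could carry were low, and the cumulus and granulosa sum was higher with amanitin. Of 10 cumulus and granulosa markers, 8 had a probe set and 5 were tested. The sum of those 8 was 160.3 to 199.6 with amanitin and 83.8 to 128.0 untreated in BBB, and 168.8 to 242.0 and 87.4 to 126.5 in BCB. Amh was near 0 in all groups (means of 1.7 to 3.0). Foxl2 gave the largest part of the sum, with means of 64.6 against 51.8 in BBB and 79.1 against 45.2 in BCB. Inha averaged 29.3 against 19.3 and 24.9 against 15.5, and both reached the 40th percentile on all 16 arrays. Has2 averaged 37.0 against 15.2 in BBB and 59.3 against 12.6 in BCB, while Tnfaip6 averaged 4.8 against 6.2 and 2.8 against 12.3. The sum of 7 sperm-carried transcripts was 86.5 to 116.5 and 48.2 to 107.5 in BBB, and 92.2 to 134.3 and 59.2 to 74.7 in BCB. The sperm sums overlapped in BBB and did not in BCB. Single markers differed: Prm1 averaged 23.7 against 24.7 in BBB and 22.0 against 21.6 in BCB. Prm2 averaged 34.8 against 12.2 and 40.8 against 14.2, and Odf1 12.8 against 7.3 and 16.1 against 2.6. Tnp1 averaged 6.7 against 8.8 and 10.8 against 7.4. The part of these other cells in the rises of members was not tested.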

How the data were processed

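The deposited table holds intensity values on a linear scale for 16 one-colour arrays, made of 64 controls and 45037 other probe sets. Per the labels' protocols, RNA came from a Picopure kit and labelling used biotin and an ENZO kit. The software that made the intensities is not given in the sources used here. Each array's trimmed mean is 150.0 and its percentiles differ, so the authors' values were scaled but not quantile normalized. Groups were taken from the labels. Symbols came from the platform annotation (34945 probe sets with 1 symbol, 932 with several, 9160 with none), and a gene was read from its probe set with 1 symbol and the highest mean over 16 arrays. Probe sets at or above the 40th percentile of their array on at least 4 of 16 arrays were tested, 31953 in all. A linear model with a mean per group was fitted to log2(intensity + 16) in limma 3.58.1 (R 4.3.3) with an intensity trend and Benjamini-Hochberg adjustment. The contrasts share arrays, since each untreated and each treated group enters an amanitin and a strain comparison. The fit was tested on simulated data. The number of arrays limits the precision, and the SE of a member's difference between groups ran from 0.08 to 0.29. Positions and promoters are RefSeq's (GRCm38.p6). Members and lists were chosen with earlier results of these data known. Every member is accounted for; values are given for members past the threshold in any contrast or of above-median level, and for context genes only for the largest rise and fall per amanitin contrast and Dnmt1, Zfp57, Trim28 and Dppa3. Others are marked as chosen after their values were seen. Alternatives covered scaling, pseudocount, filter, probe sets, block, weights and arrays left out.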

Additional observations from a re-analysis of the deposited data

Results flagged for a closer look

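In 172 examinations of a member within a group of 4 arrays, 7 had 1 array far from the other 3 on the log2 scale, by Dixon's criterion, which chance meets in about 1 of 20 groups. With amanitin in BBB embryos, Ascl2 read 8.0 on array 4 and 49.0 to 54.0 on the others; without that array Ascl2 was called higher in BBB (0.60, adjusted p = 0.00922) and in BCB (0.43, adjusted p = 0.0361). Peg3 read 476.1 on array 1 of the same group, against 644.2 to 664.3, and Asb4 read 911.1 on array 2, against 759.1 to 776.7. In untreated BBB embryos, Airn read 17.2 on array 2 and 27.3 to 29.6 on the others, and Commd1 read 82.8 on array 3 and 59.2 to 60.8 on the others. In untreated BCB embryos array 1 stood apart for Zim1, at 24.6 against 15.7 to 16.6, and for Mest, at 445.9 against 529.5 to 534.9. The calls of Peg3, Asb4, Airn, Zim1 and Mest held without the array named.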

How the results depend on the processing

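The member counts called higher or lower with amanitin stayed within 1.5 times of 19 and 10 in BBB and 22 and 9 in BCB under quantile normalization, median centring, pseudocounts of 1 and 64, only the groups compared, averaged probe sets, no filter, the 60th percentile as filter, no intensity trend, array weights and without BBB arrays 3 and 4. Scaled to hybridization controls, 12 were higher in BBB and 11 in BCB; scaled to poly-A controls, 0 were higher and 29 lower in each. Asking also for at least 2-fold, 9 were higher and 6 lower in BBB and 10 higher in BCB. The share of all genes at that threshold was not counted. Leaving out 1 array at a time gave 18 to 22 higher and 10 to 11 lower in BBB, 19 to 23 and 9 to 10 in BCB, and 0 to 0 in the strain comparisons and the interaction. With array weights 1 member, Cdkn1c, was lower in untreated BCB than in untreated BBB. The replicate numbers do not pair the samples (correlations of same-numbered arrays −0.087 to 0.107); with the number as a replicate block 20 were higher and 10 lower in BBB, 23 and 9 in BCB, and 0 in the other comparisons. The interaction has no value with only the groups compared, since it uses all groups. Changes above 0 fell below it when the scale moved all genes down. In BBB with the poly-A scale the values were Airn −0.07, Asb4 −0.41, Ascl2 −0.91, Atp10a −0.16, Cd81 −0.73, Commd1 −1.03, Copg2 −0.15, Dlk1 −0.41, Grb10 −1.20, H13 −0.26, Igf2 −0.36, Inpp5f −0.56, Kcnq1 −0.11, Meg3 −0.89, Mest −0.57, Nap1l4 −0.96, Ndn −0.90, Peg3 −0.78, Ppp1r9a −0.81, Rasgrf1 −1.08, Slc22a2 −0.49, Slc38a4 −1.01, Snrpn −0.25, Usp29 −0.15, Zim1 −0.02. In BCB they were Asb4 −0.49, Ascl2 −0.68, Atp10a −0.43, Cd81 −0.80, Cdkn1c −1.43, Commd1 −0.30, Copg2 −0.25, Grb10 −0.97, H13 −0.38, Igf2 −0.36, Inpp5f −0.55, Magel2 −0.90, Meg3 −0.81, Mest −0.48, Nap1l4 −0.96, Nap1l5 −0.61, Ndn −0.51, Peg3 −0.88, Ppp1r9a −1.18, Rasgrf1 −0.87, Slc22a2 −0.37, Slc38a4 −0.51, Snrpn −0.49, Usp29 −0.22, Zim1 −0.35. With hybridization controls they were Grb10 −0.05 in BBB and Cdkn1c −0.53, Grb10 −0.05, Nap1l4 −0.01, Ppp1r9a −0.34, Rasgrf1 −0.06 in BCB. Members near background have the widest errors, and 20 of the 43 tested had all group means under 100.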
